A study of Mus musculus with 24 samples.

Results

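Genes for mitochondrial ribosomal proteins were compared between the brains of Ts1Cje and 2N mice, to set Mrps6, which is present in an extra copy in Ts1Cje, beside the members that are not. Members were the probe sets whose single annotated symbol is Mrpl or Mrps followed by a number, with or without a further letter. They made up 105 of the 24833 probe sets that are not controls, 76 of 12422 on the MGU74A array (array A) and 29 of 12411 on the MGU74B array (array B). They named 74 of the 13674 genes that a probe set names alone, of which array A held 61 and array B held 24. RefSeq for GRCm38.p6 holds 78 protein-coding genes with such symbols. On array A another 5 probe sets named a member together with a second gene and were left out. The 74 genes lie on 17 chromosomes, with 3 of them (Mrps6, Mrpl39 and Mrpl40) on chromosome 16.

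Total RNA from brain was hybridised in 6 samples per genotype on each array. The 2N animals have the normal chromosome complement. Ts1Cje animals, a model of Down syndrome, carry an additional distal piece of chromosome 16 attached to another chromosome. Sod1, at the boundary of that piece, is described as inactivated on it. On these arrays the Sod1 probe sets lay above 0, at 0.39 on array A and 0.80 on array B (log2 difference, Ts1Cje minus 2N). Their unadjusted p were 0.0050 and 0.0060, and neither passed (limma adjusted p = 0.99 and 1.0). By gene order Mrps6 is 27 protein-coding genes beyond Sod1, within the additional piece, whereas Mrpl39 and Mrpl40 lie on the centromeric side of Sod1 and have the usual 2 copies. The labels give no brain region, age, sex, strain background or treatment, and do not say that numbered samples were separate animals. The p-values therefore reflect how these particular samples varied, which may be technical variation. Because brain is a mixture of cells, fewer cells of a type and less RNA per cell cannot be told apart in these values.

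Mitochondrial ribosomes translate the few proteins encoded by mitochondrial DNA, which are core parts of the respiratory chain and ATP synthase. Each ribosome has a small subunit, which decodes the messenger RNA, and a large subunit, which joins amino acids and holds the exit tunnel. All of its proteins are encoded in the nucleus and imported. Mrps6 is the counterpart of bacterial ribosomal protein S6 and sits on the platform of the small subunit, where in bacteria S6 binds as a partner of S18. Neurons draw heavily on oxidative phosphorylation, and inherited defects in mitochondrial ribosomal proteins cause respiratory chain disease.

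Upstream sequences are shown for 3 members: trisomic Mrps6, its platform partner Mrps18c, and Mrpl39, a disomic member of the same chromosome. Each is the 250 bases before the RefSeq start (GRCm38.p6), written 5′ to 3′ on the strand of the gene. The Mrps6 window is chr16:92058086-92058335 on the plus strand, and its capitals mark the 4 matches to the SP1 motif GGGCGG, the first pair of which share a base. The Mrps18c window is chr5:100798509-100798758 on the plus strand, and its capitals mark 1 match to the ETS/GABP motif CCGGAAG on the other strand. The Mrpl39 window is chr16:84735245-84735494 on the minus strand, and its capitals mark 1 match to the NRF1 motif (GCGCA, any base, then GCGC).
Mrps6: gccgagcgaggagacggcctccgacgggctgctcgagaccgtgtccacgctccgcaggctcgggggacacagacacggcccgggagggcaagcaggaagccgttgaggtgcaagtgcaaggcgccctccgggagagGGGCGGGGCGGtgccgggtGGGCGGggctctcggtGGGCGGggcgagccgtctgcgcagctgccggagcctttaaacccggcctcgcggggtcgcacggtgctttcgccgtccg
Mrps18c: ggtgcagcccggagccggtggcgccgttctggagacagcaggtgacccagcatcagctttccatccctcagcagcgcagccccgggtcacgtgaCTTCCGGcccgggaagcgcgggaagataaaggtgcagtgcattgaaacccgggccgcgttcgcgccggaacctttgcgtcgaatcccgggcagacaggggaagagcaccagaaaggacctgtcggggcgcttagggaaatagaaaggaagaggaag
Mrpl39: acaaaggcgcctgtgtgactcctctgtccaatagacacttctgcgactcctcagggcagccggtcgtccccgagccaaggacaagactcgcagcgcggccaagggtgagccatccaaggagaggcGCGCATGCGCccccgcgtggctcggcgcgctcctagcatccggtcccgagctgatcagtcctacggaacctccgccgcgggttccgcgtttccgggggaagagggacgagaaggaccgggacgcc

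Both strands were searched for 4 motifs in 71 windows of 65 of the 74 genes, and overlapping matches counted as matches. NRF1 and GABP are regulators of nuclear genes for mitochondria. The NRF1 letters were in 9 windows of members (12.7%), against 3.74% of all 32851 windows and 5.18% of those of protein-coding genes. For ETS/GABP the members had 17 (23.9%), against 6.91% and 8.98%. SP1 letters were in 36 windows of members (50.7%), against 32.7% and 42.6%. The YY1 letters AAGATGGC were in 4 (5.63%), against 1.56% and 1.5%. In the Mrps6 window only the SP1 letters were found among these 4 motifs. A match is a description of the letters, not of a bound site. Slc5a3, which encodes a myo-inositol transporter, starts 14 bases upstream of Mrps6 on the same strand, so 236 of the 250 bases before Mrps6 are shared by both windows.

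Mrps6 was higher in Ts1Cje brain than in 2N brain, by 0.53 on the log2 scale (SE 0.12). It was measured by 1 probe set, on array B. After quantile normalisation, which gives all arrays of a design the same distribution of values, its lowest, median and highest intensities were 36.3, 38.8 and 54.3 in 2N and 54.9, 60.9 and 66.8 in Ts1Cje. The genotypes did not overlap: each Ts1Cje sample exceeded each 2N sample, and the nearest pair was 54.3 against 54.9. The means were 42.7 ± 7.87 (SD, n = 6) and 60.9 ± 4.87 (SD, n = 6).

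**Figure D1:**
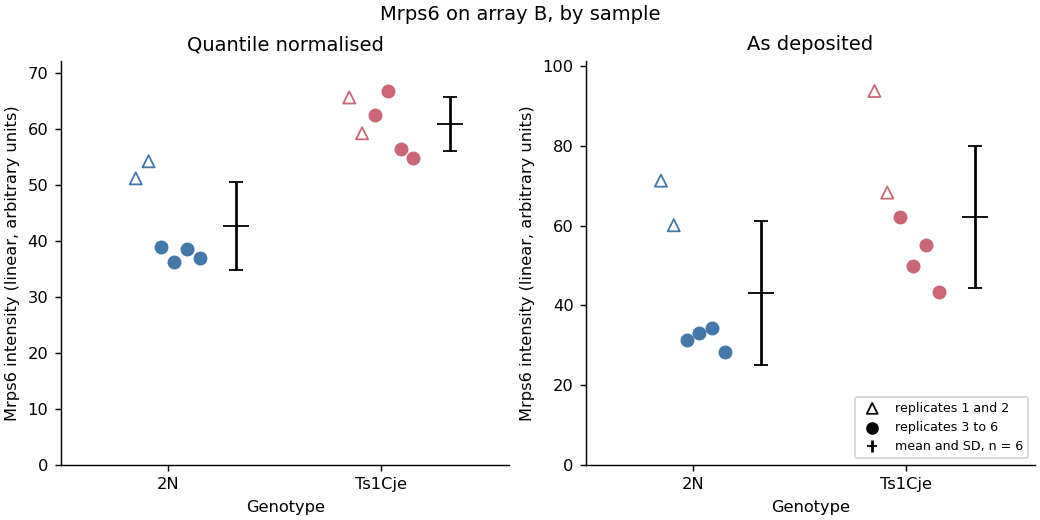
Intensity of Mrps6 on array B in each sample (points) on a linear axis, after quantile normalisation on the left and as deposited on the right, with the mean and SD of each genotype. Normalised values of the genotypes do not overlap, whereas deposited values do, and 2N replicates 1 and 2 lie at 51.2 and 54.3, above the other 2N replicates.

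The 95% interval of the Mrps6 difference, 0.28 to 0.77, excluded 0 and held 0.58, the log2 value of the 1.5-fold ratio of 3 copies to 2. Fitted with limma across all 9308 tested probe sets of array B, Mrps6 had an unadjusted p of 0.000266 and a Benjamini-Hochberg adjusted p of 0.27, so it did not pass the threshold of 0.05. The probe sets of array B that passed made up 0.0645% of those tested, and Mrps6 ranked 9 by p. For Mrps6 alone the two-sided exact permutation test over 924 splits gave p = 0.0022, the smallest they can give. Complete separation upward was seen for 0.193% of the probe sets tested on array B.

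Mrps6 was also read within replicates 1 and 2 and within replicates 3 to 6, a split of both genotypes that was seen in the data and has no label. In replicates 1 and 2 the 2N values were 51.2 and 54.3 and the Ts1Cje values 59.3 and 65.7, a log2 difference of 0.24 (two-sided exact permutation p = 0.33, the smallest possible). In replicates 3 to 6 the 2N values ran from 36.3 to 38.9 and the Ts1Cje values from 54.9 to 66.8, a difference of 0.67 (two-sided exact permutation p = 0.029, again the smallest possible). Because the split came from the same data, these p-values are no independent evidence. The differences of the parts were 0.43 apart (SE 0.19, limma unadjusted p = 0.039), in a fit added after the data were seen. In that fit 0 of 9308 probe sets passed. With a term for the split in the fit of all samples, the Mrps6 difference stayed 0.53 (SE 0.099), with a limma adjusted p of 0.072. Both fits use the split that was seen in these data, so their p-values are no independent evidence either. With the deposited values, not normalised between arrays, the lowest, median and highest were 28.4, 33.6 and 71.3 in 2N and 43.4, 58.6 and 93.8 in Ts1Cje, which overlap. The log2 difference was then 0.58 (two-sided exact permutation p = 0.065).

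None of the other 73 genes of the family has an extra copy, and none of their tested probe sets passed. The tests covered 91 probe sets of 71 genes, 68 of them on array A, 23 on array B. All but Mrps6, 90 probe sets, were disomic. On array A 0 of 68 passed the limma test, 0 had an unadjusted p under 0.05 and 0 separated the genotypes completely. The same counts on array B were 0, 0 and 0 of 22 disomic probe sets. Among all tested probe sets 0.0966% of array A passed, 3.63% had an unadjusted p under 0.05, 0.193% separated upward and 0.107% downward. Array B had 4.24% with an unadjusted p under 0.05 and 0.0537% that separated downward.

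**Figure D2:**
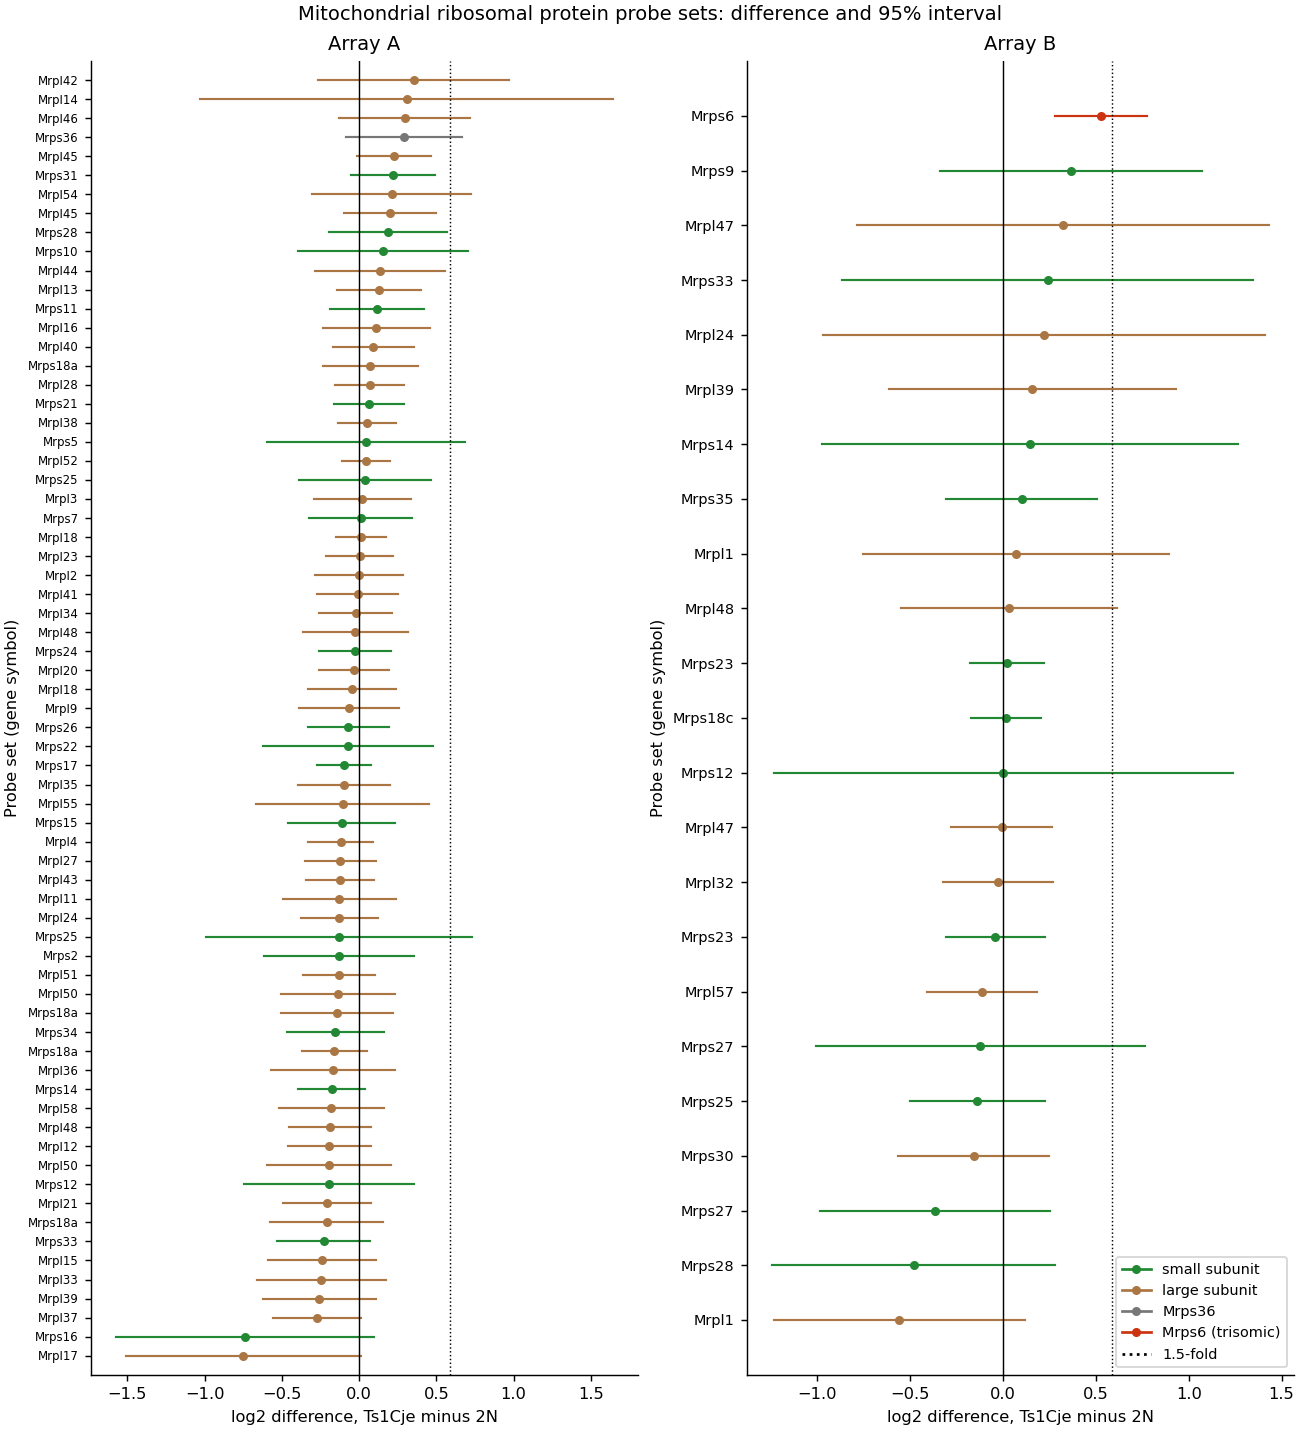
Log2 difference of each tested member probe set (points, Ts1Cje minus 2N) with its 95% interval (lines), sorted within each array and coloured by ribosomal subunit, with the 1.5-fold ratio dotted. Of the intervals drawn, that of Mrps6 (0.28 to 0.77) is the only one of 91 that does not hold 0.

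Disomic members were spread on both sides of 0. On array A 26 of 68 were above 0 (38.2%), where 48.9% of all tested probe sets were, with a median of -0.07 against -0.00424 for all. On array B 12 of 22 were above 0 (54.5%, against 49.3% of all), with a median of 0.0081 against -0.00346. The differences spanned -0.75 to 0.35 on array A, and on array B they spanned -0.56 to 0.37. Mrps6 had both the highest difference and the smallest p of the 91 members, and the next highest difference was that of Mrps9 at 0.37.

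How narrowly a disomic member was measured followed its intensity. The upper 95% bound lay below 1.5-fold for 72 of the 90 probe sets, and the whole interval lay within 1.5-fold either way for 59. Of the 54 that were brighter than the median of their table, 53 had an upper bound below 1.5-fold, and the median SE was 0.13. Of the 36 dimmer ones, 19 had such a bound, and the median SE was 0.29. The intervals of the other dimmer members held a 1.5-fold difference.

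**Figure D3:**
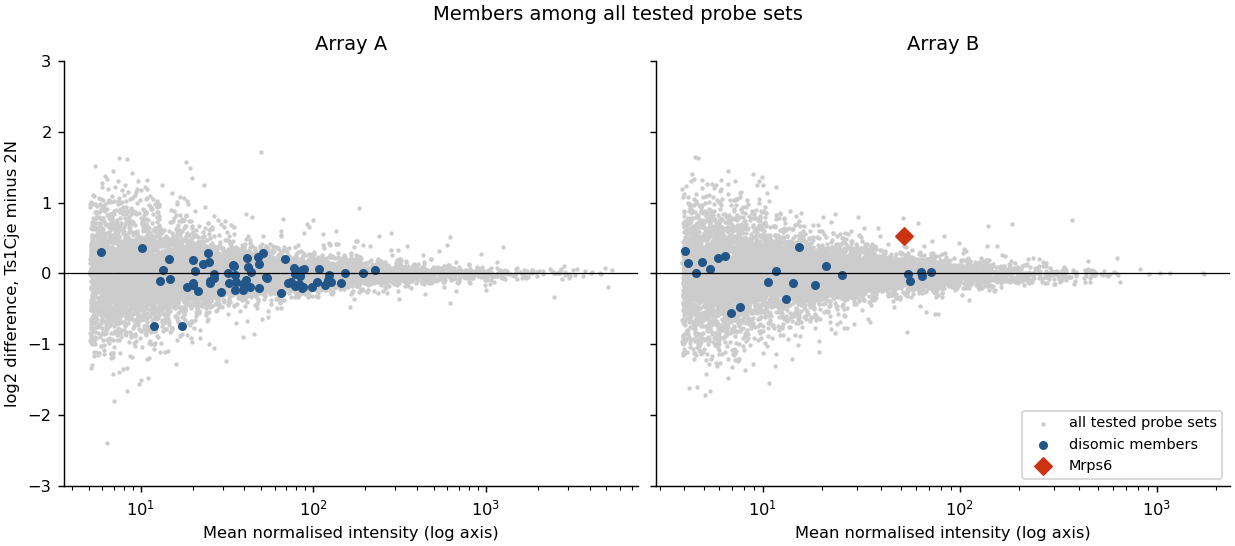
Log2 difference (Ts1Cje minus 2N) against mean normalised intensity (log axis) for all tested probe sets (grey), disomic members (blue) and Mrps6 (red diamond, array B only). Members with the widest differences, such as Mrpl17 at -0.75 and Mrps16 at -0.74 on array A, are among the dimmer ones, and Mrps6 lies above every member.

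Mrps6 was also set against the rest of the family within each sample. The log2 value of Mrps6 minus the median of the 22 disomic probe sets of array B was lowest, middle and highest at 1.32, 1.78 and 2.20 in 2N and at 2.37, 2.44 and 2.48 in Ts1Cje. The genotypes did not overlap, and the means differed by 0.68. Only the difference between genotypes can be read here, since levels of different probe sets are not comparable. The sample median of the disomic members itself moved by -0.16 on array B, although the median of their differences was 0.0081. The corresponding values of array A were 0.08 and -0.07, again of opposite sign. With each member first centred on its own mean, a step added after the data were seen, Mrps6 minus the median differed by 0.55.

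The platform neighbours of Mrps6 in the small subunit did not pass. Mrps18c, the counterpart of bacterial S18, had intensities of 65.8, 71.2 and 75.1 (lowest, median, highest) in 2N and 64.7, 69.0 and 86.7 in Ts1Cje on array B, which overlap. Its difference was 0.01 (SE 0.09, 95% interval -0.17 to 0.20), and the interval excludes 1.5-fold. Mrps11 differed by 0.12 (SE 0.14, interval -0.19 to 0.42), Mrps15 by -0.11 (SE 0.16, interval -0.46 to 0.23) and Mrps21 by 0.06 (SE 0.11, interval -0.16 to 0.29), all on array A. These counterparts of bacterial S11, S15 and S21 belong to the same platform, and all had overlapping genotypes. The platform set was picked after its values were known.

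**Figure D4:**
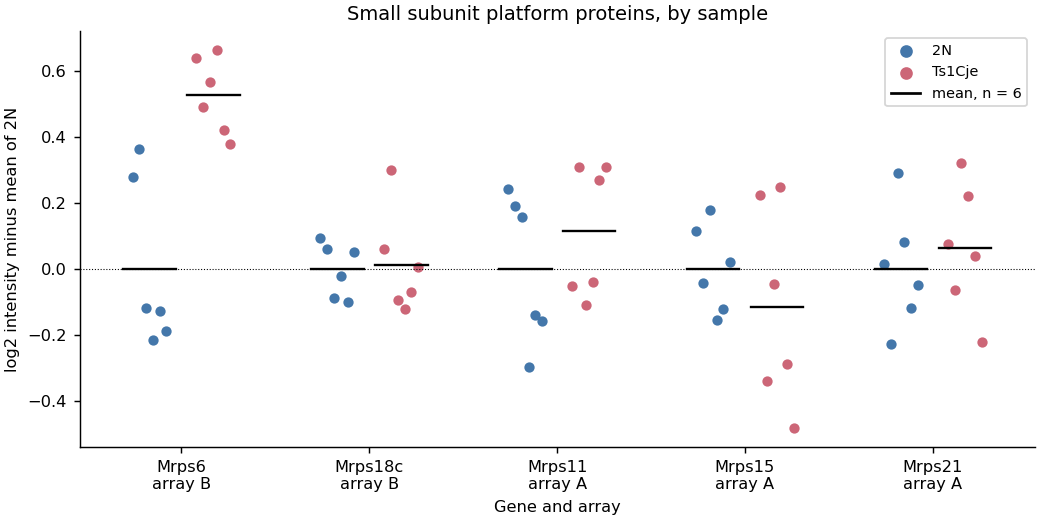
Log2 intensity of Mrps6 and 4 platform proteins in each sample (points), relative to the 2N mean of the same probe set, with the mean of each genotype as a bar. The Ts1Cje points of Mrps6 lie above all its 2N points, whereas the points of Mrps18c, Mrps11, Mrps15 and Mrps21 overlap.

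Other small subunit proteins lay around 0. Over 20 disomic probe sets of array A the median was -0.07 with 8 above 0, and over 12 of array B it was 0.0081 with 7 above 0. Mrps16, a counterpart of a bacterial protein whose loss causes a human respiratory chain disorder, had the lowest difference of this subunit on array A. Its intensities were 8.74, 14.4 and 18.2 in 2N and 3.26, 9.47 and 16.5 in Ts1Cje (lowest, median, highest), a difference of -0.74 (SE 0.40). The genotypes overlapped, and the interval held 0. Mrps12, the decoding protein linked to streptomycin resistance in bacteria, differed by -0.20 (SE 0.26) on array A. Its dim array B probe set was at 0.0019 (SE 0.59).

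On array B the small subunit ran from Mrps28 to Mrps6, with Mrps9 next. Mrps9, the counterpart of bacterial S9, had intensities of 4.75, 14.7 and 22.6 in 2N and 11.1, 14.8 and 26.1 in Ts1Cje, with nearly equal medians, and a difference of 0.37 (SE 0.34). Mrps28 differed by -0.48 (SE 0.36), with 5.75, 7.90 and 12.6 in 2N and 2.05, 7.46 and 9.22 in Ts1Cje. Mrps27, a pentatricopeptide repeat protein, had a difference of -0.37 (SE 0.29) in the lower of its probe sets. The bright Mrps23 probe sets were measured more narrowly, at -0.04 (SE 0.13) and 0.02 (SE 0.10). Mrps33 stood at 0.24 (SE 0.53). All of these overlapped between genotypes.

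Mrps36 and Mrps30 carry small subunit symbols but are placed elsewhere. Mrps36, since described as a part of the 2-oxoglutarate dehydrogenase complex, had intensities of 31.9, 46.0 and 66.0 in 2N and 43.9, 51.3 and 71.1 in Ts1Cje, a difference of 0.29 (SE 0.18). Mrps30, assigned to the large subunit, differed by -0.16 (SE 0.19) on array B. Mrps18a, also assigned to the large subunit, had 4 tested probe sets on array A at -0.21, -0.16, -0.14 and 0.07. Each of the 6 probe sets overlapped between genotypes.

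In the large subunit 17 of 47 probe sets on array A were above 0, with a median of -0.07, and 5 of 10 on array B, with a median of 0.01. Mrpl17 had the lowest difference of the whole family. Its intensities were 17, 18.5 and 33.4 in 2N and 3.16, 14.6 and 20.7 in Ts1Cje, a difference of -0.75 (SE 0.36) with overlap. Its unadjusted p was 0.053 and its limma adjusted p 0.99. The interval ran from -1.51 to 0.01, and without Ts1Cje replicate 6 the difference was -0.36.

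Mrpl37, one of the proteins that the mitochondrial ribosome has and the bacterial one lacks, was the next lowest of this subunit on array A. Its intensities were 59.0, 70.8 and 89.3 in 2N and 50.01, 52.9 and 82.2 in Ts1Cje, a difference of -0.27 (SE 0.14). Its medians were apart but the ranges overlapped. The highest of array A were also in this subunit: Mrpl42 at 0.35 (SE 0.29), Mrpl14 at 0.31 (SE 0.63) and Mrpl46 at 0.29 (SE 0.20). Mrpl14 was among the dimmest tested, with 1.22, 3.83 and 20.6 in 2N and 2.38, 4.92 and 11.8 in Ts1Cje.

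The brightest members of array A were among the more precisely measured. Mrpl52 had intensities of 210.3, 226 and 245 in 2N and 208, 229 and 275 in Ts1Cje, a difference of 0.04 (SE 0.07). Mrpl18, a ribosomal RNA binding protein, differed by 0.01 (SE 0.08) in its bright probe set, and Mrpl23, near the exit tunnel, by 0.0027 (SE 0.10). Mrpl51 was at -0.13 (SE 0.11). Mrpl12, Mrpl58 and Mrpl45 were less bright and are named for their roles. Mrpl12, a stalk protein that also binds mitochondrial RNA polymerase, stood at -0.19 (SE 0.13). Mrpl58, a peptidyl-tRNA hydrolase that frees stalled ribosomes, was at -0.18 (SE 0.16). Mrpl45, which docks the ribosome at the inner membrane, had 2 probe sets at 0.20 (SE 0.14) and 0.23 (SE 0.11). The intervals of all these held 0.

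On array B the large subunit reached from Mrpl1 at -0.56 (SE 0.32) to Mrpl47 at 0.32 (SE 0.53). Mrpl1, part of the stalk by which transfer RNA leaves in bacteria, had intensities of 5.07, 7.80 and 11.4 in 2N and 3.42, 6.03 and 7.83 in Ts1Cje, with overlap. Mrpl57, the brightest of this subunit there, had 40.7, 58.1 and 74.9 in 2N and 42.5, 50.2 and 64.2 in Ts1Cje, a difference of -0.11 (SE 0.14). Split by origin over both arrays, large subunit members with a bacterial counterpart had a median of -0.08 over 32 probe sets, and those specific to mitochondria -0.0075 over 25. The first count places Mrps18a by its bacterial S18 homology. For the small subunit the medians were 0.0063 over 18 and -0.07 over 14.

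The disomic chromosome 16 members gave a comparison outside the additional piece. Mrpl39, whose human ortholog lies on the chromosome that is trisomic in Down syndrome, had intensities of 26.4, 30.0 and 37.0 in 2N and 16.9, 27.0 and 34.2 in Ts1Cje on array A. The genotypes overlapped, and the difference was -0.26 (SE 0.17, 95% interval -0.63 to 0.11). On array B it differed by 0.16 (SE 0.37). Mrpl40, on the centromeric side of Sod1, had 37.2, 40.7 and 43.4 in 2N and 32.1, 45.7 and 49.1 in Ts1Cje, a difference of 0.09 (SE 0.12). Its upper bound of 0.35 lies below 1.5-fold.

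Repeated measurements of a gene show how far probe sets differed. For 8 genes tested on both arrays (Mrpl24, Mrpl39, Mrpl48, Mrps12, Mrps14, Mrps25, Mrps28 and Mrps33) the brightest probe sets had opposite signs in 8 of 8. The intervals of all these probe sets held 0. Mrps28 was at 0.18 on array A but -0.48 on array B, and Mrpl24 at -0.13 and 0.22. For Mrps25 the choice mattered: an array A probe set nearly as bright (mean 20.1 against 20.6) was at -0.13, beside -0.14 on array B. Within array A the pairs were -0.19 and -0.14 for Mrpl50, -0.19 and -0.03 for Mrpl48, -0.05 and 0.01 for Mrpl18, and -0.13 and 0.04 for Mrps25. Within array B they were -0.56 and 0.07 for Mrpl1, -0.37 and -0.12 for Mrps27, and -0.0075 and 0.32 for Mrpl47. Of the tested probe sets, 12 carry a suffix by which the maker marks probes shared with other sequences or incomplete, and their values are uncertain for that reason.

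A further 14 probe sets were too dim to be tested, with mean intensities up to 3.32. They left Mrpl19, Mrpl49 and Mrpl53 with no tested probe set. The others were second probe sets of Mrpl2, Mrpl14, Mrpl15, Mrpl36, Mrpl46 and Mrpl50 on array A and of Mrps5, Mrps15, Mrps18c and Mrps34 on array B, and each of these genes had a tested one. No fold is given for them.

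The genes next to Mrps6 on the additional piece lay above 0 throughout. The list of 12 was chosen for lying there, so its direction is no independent evidence. Of these, 9 genes were tested by 14 probe sets, and 14 of 14 were above 0, with medians of 0.51 (array A) and 0.41 (array B). The limma test passed 3, all upward: Son, which encodes a splicing cofactor, on both arrays (0.92, adjusted p = 1.03e-05, and 0.79, adjusted p = 0.016), and Itsn1, an endocytic scaffold, on array A (0.59, adjusted p = 0.020). Other probe sets of these genes did not pass: Son on array A at 0.66 (limma adjusted p = 0.92) and Itsn1 on array B at 0.33, 0.39 and 0.49 (limma adjusted p from 0.93 to 1.0), all with overlapping genotypes. The Mrps6 difference of 0.53 lies within their range of 0.26 to 0.92.

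**Figure D5:**
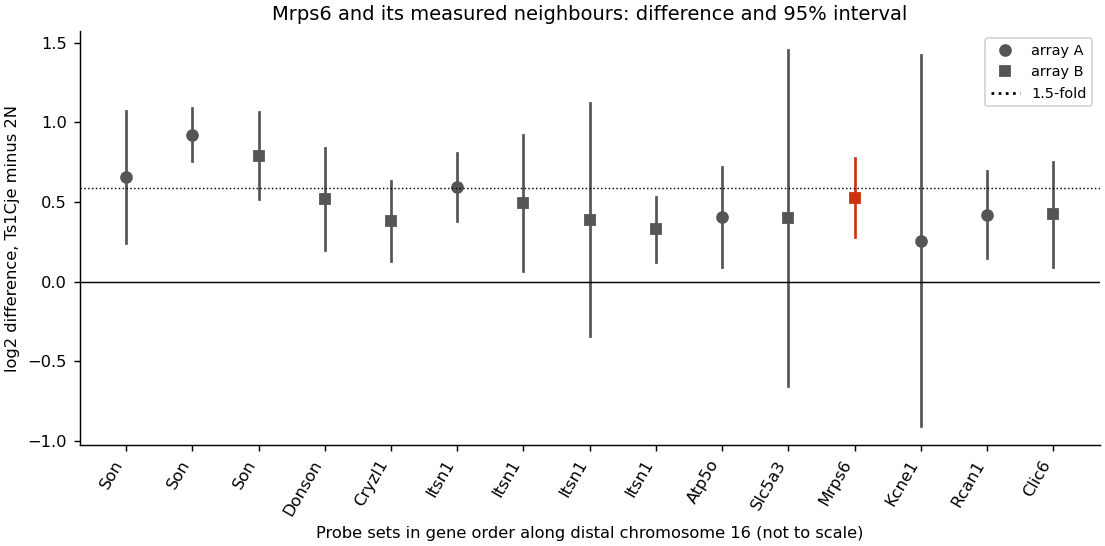
Log2 difference (Ts1Cje minus 2N) with its 95% interval for tested probe sets of Mrps6 (red) and its neighbours (grey) in gene order, circles for array A and squares for array B, with 1.5-fold dotted. All 15 points lie above 0, and the intervals of Slc5a3, Kcne1 and 1 Itsn1 probe set reach below it.

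Slc5a3, the nearest gene, was measured poorly. Its intensities were 3.87, 7.99 and 28.6 in 2N and 4.18, 18.7 and 23.0 in Ts1Cje, with overlap, and its difference was 0.40 (SE 0.50). Atp5o, a subunit of ATP synthase and like Mrps6 a mitochondrial protein, had 367, 539 and 587 in 2N and 435, 657 and 937 in Ts1Cje, a difference of 0.41 (SE 0.15, limma adjusted p = 0.99). Its genotypes overlapped. Donson, a replication protein, separated the genotypes completely at 0.52 (SE 0.15) without passing. Cryzl1 was at 0.38, the calcineurin regulator Rcan1 at 0.42, Clic6 at 0.42 and the potassium channel subunit Kcne1 at 0.26. Runx1 was too dim to be tested.

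Calls of Itsn1 on array A and Son on array B were lost when any of several single samples was left out. Their differences then stayed near those of all samples, 0.59 and 0.79. Itsn1 on array A did not pass without 2N replicate 1, 3, 5 or 6 or Ts1Cje replicate 1 or 5, where its difference ran from 0.53 to 0.60. Son on array B did not pass without 2N replicate 5 or any of Ts1Cje replicates 1, 2, 3, 5 and 6, where it ran from 0.76 to 0.83.

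Genes that work with the mitochondrial ribosome did not pass in any list. Of all tested probe sets only 0.0966% on array A and 0.0645% on array B passed. Lists this short would rarely hold a call at those shares. The 4 tested mitoribosomal proteins with other symbols included Dap3, a small subunit protein, at -0.05 (SE 0.20), and Oxa1l, the insertase that receives new proteins, at 0.05 (SE 0.15). Of 11 translation factors and mRNA partners, 0 of 14 probe sets passed, with a median of -0.05 for array A and of 0.29 for array B. On array A 2 of 7 were above 0 and on array B 7 of 7, against 48.9% and 49.3% of all tested. The array B probe sets except that of Mtfmt were dimmer than the table median of 16.1, with SE from 0.39 to 0.62. The intervals of all 7 held 0. Slirp and Lrpprc, which together stabilise mitochondrial mRNA, were at -0.05 (SE 0.10) and -0.09 (SE 0.10) on array A, and the dim Slirp probe set of array B was at 0.64 (SE 0.39).

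Factors that assemble the ribosome or modify its RNA (14 genes, 17 probe sets) had medians of -0.06 and 0.06 on arrays A and B, with the helicase Dhx30 at -0.05 (SE 0.14) and the GTPase Eral1 at 0.0040 (SE 0.15) in its brighter probe set. Mitochondrial tRNA synthetases and amidotransferase subunits (19 genes, 25 probe sets) had medians of 0.02 and -0.12. Their brightest, Gars and Rars2, were at -0.03 (SE 0.10) and -0.02 (SE 0.21). Mars2, chosen here after its value was seen, was at -1.08 in a dim probe set, with an unadjusted p of 0.012 and a limma adjusted p of 1.0. Its other tested probe set on array B, also dim, was at 0.20 (SE 0.55). Proteins that copy and transcribe mitochondrial DNA (8 genes, 13 probe sets) had medians of -0.0062 and -0.20, with the tRNA-processing nuclease Elac2 at 0.15 (SE 0.12) and Polrmt, the polymerase, at -0.08 (SE 0.14) in their brightest probe sets. None of these probe sets passed.

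Measures of mitochondrial content did not pass either, over 19 genes and 28 probe sets, with medians of -0.0062 (array A) and 0.07 (array B). At the shares of all tested probe sets given above, a list of this length would rarely hold a call. The ATP/ADP carrier Slc25a4 had intensities of 827, 905 and 1134 in 2N and 868, 918 and 961 in Ts1Cje, a difference of -0.01 (SE 0.07), with the Ts1Cje range inside that of 2N. The chaperone Hspd1 was at 0.19 (SE 0.16). Regulators of mitochondrial gene expression (9 genes, 18 probe sets) had medians of -0.05 and -0.19. Sp1 was at 0.13 (SE 0.09) and Gabpb1 at -0.07 (SE 0.12) in their brightest probe sets.

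The tissue label was checked on markers. All 8 neuron markers listed were tested on array A, where their summed intensity ran from 6752 to 7762 in 2N and from 7341 to 8215 in Ts1Cje. Of 5 liver markers 1 was tested there, Ttr, which choroid plexus also makes, at 0.06. On array B the liver marker tested was Apoa1, a plasma apolipoprotein, with intensities of 2.09, 5.85 and 11.4 in 2N and 4.40, 11.8 and 14.2 in Ts1Cje, a difference of 0.94 (SE 0.41, unadjusted p = 0.035, limma adjusted p = 1.0) with overlap. Across 12 lists of cell type and tissue markers (64 genes, 101 probe sets) 0 passed the limma test. Of all tested probe sets 0.0966% (array A) and 0.0645% (array B) passed. Among the markers 6 had an unadjusted p under 0.05. They were 2 of 82 probe sets on array A (2.44%, against 3.63% of all tested) and 4 of 19 on array B (21.1%, against 4.24%), and are named after their values were seen. On array B, which carries Mrps6, they were the oligodendrocyte factor Sox10 at 0.46, the endothelial receptor Flt1 at -1.07, Apoa1 at 0.94 and Clic6 at 0.42, a choroid plexus marker that is also a neighbour of Mrps6. On array A they were the meningeal marker Ptgds at -0.42 and the pituitary hormone subunit Cga at 0.91. There 5 of 5 pituitary probe sets (median 0.34) and 3 of 4 of skeletal muscle (median 0.60) were above 0. The same counts were 0 of 3 for erythroid and 3 of 12 for meningeal markers. Sox10 ran from 41.0 to 80.1 in 2N and from 73.1 to 91.4 in Ts1Cje, with overlap. The Sox10 probe sets of array A were at -0.30 and -0.06. Only 1 of 8 oligodendrocyte probe sets there was above 0 (median -0.06). For array B the count was 3 of 6 (median 0.16). Besides Sox10 these were the Olig2 probe sets at 0.33 and 0.65, while those of Mobp were at -0.38, -0.08 and -0.0073. Flt1 was at -0.58 and -0.09 on array A, where 5 of 8 endothelial probe sets were above 0. The other Ptgds probe sets were at -0.12 and -0.06. The part of these markers in the Mrps6 difference was not tested.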

How the data were processed

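The deposited tables hold linear intensity values of probe sets, as their range shows. For the summarising of probes and scaling of arrays by the authors, nothing is given in the sources used here. Trimmed means of the deposited arrays differed by as much as 2.10-fold (array A) and 1.86-fold (array B), above the 5% set as a limit, so each table was quantile normalised by itself. Values under the 10th percentile of a table were raised to it (1.47 and 1.13) and log2 was taken. After 66 controls were left out of each table, probe sets whose mean reached the 25th percentile entered the tests, 9316 for array A and 9308 for array B. Ts1Cje was compared with 2N by limma 3.58.1 in R 4.3.3 (lmFit, eBayes with trend), with Benjamini-Hochberg adjustment within a table and a threshold of 0.05. Mrps6 alone was also tested by exact permutation. The number of arrays limits the precision. Spearman correlations between arrays were 0.914 to 0.957 for array A and 0.883 to 0.926 for array B. Folds on the log2 scale can understate dim genes.

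Gene names came from the platform annotation, and all 74 symbols matched RefSeq (GRCm38.p6), used for names and gene order. Genes were named by rule: Mrps6, members that passed or had an unadjusted p under 0.05, the 4 highest, lowest and brightest of each array, members measured repeatedly or too dim, neighbours of Mrps6, and the 2 brightest genes of each other list. Others were named where a role is described. The members and lists were chosen with earlier results of these data known, and the subunit roles, motifs and platform set after values had been seen. The script was tested on simulated data. The alternatives changed the normalisation, floor, offset, filter, trend, weights, replicate block and samples.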

Additional observations from a re-analysis of the deposited data

Results flagged for a closer look

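In 17 of 188 groups of 6 samples, 1 member sample lay far from the rest of its genotype by Dixon's test (its gap to the nearest sample over the range of the group). Chance alone flags about 1 in 20 groups, and probe sets of an array share its samples, so the groups are not independent. Values are log2 normalised intensities.

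On array A, 2N replicate 2 accounted for 5 of these. It was the highest 2N sample for Mrpl17 (5.06), Mrpl48 (7.12) and Mrpl20 (6.74), and the lowest for Mrps2 (3.73) and Mrpl28 (6.05). Ts1Cje replicate 6 of array A also accounted for 5, being lowest for Mrpl17 (1.66), Mrpl21 (5.04), Mrps25 (2.36), Mrps10 (3.27) and Mrpl45 (5.72). Mrpl17, which had the lowest difference of the family, was thus singled out in both genotypes, upward in 2N and downward in Ts1Cje.

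Ts1Cje replicate 1 of array A was lowest for Mrpl48 (6.12) and highest for Mrpl52 (8.11). Ts1Cje replicate 2 was lowest for Mrpl50 (3.68) and Mrpl40 (5.01). On array B, Ts1Cje replicate 5 was lowest for Mrps28 (1.04) and Mrps14 (0.18), and Ts1Cje replicate 2 was highest for Mrps30 (4.90). Neither genotype of Mrps6 had such a sample.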

How the results depend on the processing

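Mrps6 was higher in Ts1Cje under all 26 alternatives, by 0.23 to 0.67, and passed the limma threshold in none, with adjusted p from 0.068 (without 2N replicate 2) to 1.0 (no normalisation between arrays). Genotypes did not overlap in 25 of the 26, and overlapped with no normalisation between arrays. Most alternatives leave the order of the Mrps6 samples unchanged or nearly so, and this count is therefore no independent evidence. Leaving out 1 sample in turn gave 0.48 to 0.60. No disomic member passed in any alternative, and of 90 probe sets 54 changed sign in at least 1 alternative and 36 in none. Mrps6 minus the median disomic member was 0.26 with 64 added before log2 and was 0.45 in replicates 1 and 2 alone. With the filter at the 50th percentile 5 disomic members of array B were above 0, since fewer were tested. The median of the mitochondrial content list on array B was 0.25 in replicates 1 and 2.

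For neighbours of Mrps6 on array A, 0 passed without normalisation and in replicates 1 and 2, 1 without the trend and in replicates 3 to 6, and 1 to 2 with 1 sample left out. On array B 0 passed without normalisation, without the trend, with the block and in either split, and 0 to 1 with 1 sample left out. Their median on array A was 0.41 with 16 added, 0.33 with 64 added, 0.69 in replicates 3 to 6 and 0.47 to 0.61 with 1 sample left out, and on array B 0.26 with 16 and 0.12 with 64 added. An added offset shrinks differences of dim genes by construction. The cause of the other changes was not tested.

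Genotypes share replicate numbers, and the labels do not say whether these pair the samples. Same-number deviations correlated weakly but always above 0, at 0.02 to 0.08 on array A and 0.01 to 0.11 on array B. On these arrays 3 of 6 and 2 of 6 numbers matched best with themselves. Whether the samples are weakly paired was not tested. With the replicate number as a block the Mrps6 difference was 0.53 (SE 0.11) with a limma adjusted p of 0.26. Among the neighbours on array B, Son (0.79) no longer passed with the block. On both arrays 2N replicate 2 deviated most like Ts1Cje replicate 1 (r = 0.10 and 0.08 across probe sets).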
